A study of Mus musculus with 2 samples.

Results

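The Apoe-Apoc1-Apoc4-Apoc2 cluster is a run of 4 apolipoprotein genes on mouse chromosome 7. Its members were taken by gene identifier from the deposited gene tables: Apoe (ENSMUSG00000002985.11), Apoc1 (ENSMUSG00000040564.9), Apoc4 (ENSMUSG00000074336.4) and Apoc2 (ENSMUSG00000002992.12), that is 4 of 43346 genes. Their 18 transcripts were taken from the transcript tables. The samples were 2 RNA-seq libraries of one group, made from liver of B6NCrl mice at postnatal day 0, with no treatment or mutant allele named and the sex not collected. One library came from the liver of pup 1 and the other from the liver of pup 3, each made by a SmartSeq protocol. The input was 13 pg of total RNA, cut to sizes over 200 nt, which the labels equate with 1 cell-equivalent. Although the assay is named single cell RNA-seq, the material was tissue RNA. The labels give both pups the same donor entry, so spread between animals and technical spread cannot be told apart. With a single group there was no contrast between conditions and no test, and every difference given is between 2 libraries.

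Apolipoproteins are the protein part of lipoproteins, the particles that carry triglyceride and cholesterol in blood. ApoE is the ligand by which remnant particles are taken up by liver cells, in part through LRP1. ApoC-II is the cofactor that lipoprotein lipase needs, and ApoC-I and ApoC-III hold back lipolysis and remnant uptake. The role of ApoC-IV is less well known. The liver is the main source of all these proteins, and ApoE is also made by macrophages. In the human counterpart, expression in liver is known to depend on shared control regions that lie downstream of the Apoc1 gene.

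The genes lie head to tail on the minus strand of GRCm38 within 27610 bp, from 19671579 to 19699188. Apoe spans 19696109 to 19699188, Apoc1 spans 19689481 to 19692660, Apoc4 spans 19678083 to 19681479 and Apoc2 spans 19671579 to 19677941. The distance from Apoe to Apoc1 is 3448 bp and that from Apoc1 to Apoc4 is 8001 bp, while only 141 bp separate Apoc4 from the farthest annotated start of Apoc2. RefSeq promoter sequence on GRCm38.p6 was given for 3 of the 4 genes, all but Apoc1. The 200 bases before the start of Apoe and of Apoc4 are shown because these genes had nearly the same level in both libraries. They are written 5′ to 3′ on the minus strand, and the capitals mark the longest run of letters that they share. The Apoe window is chr7:19699189-19699388 and the Apoc4 window is chr7:19681461-19681660. Of the Apoe starts given, the farthest upstream was used, 19699188, which is the start of the minor form Apoe-206. The leading form, Apoe-209, starts at 19699008, so the distances below do not hold for it. The Apoc4 start used is the RefSeq one, 19681460. The only listed Apoc4 form, Apoc4-201, starts farther upstream, at 19681479, which is inside the window. The end of the Apoc4 window thus lies in the first exon of that form, and the capitals cross its start.
Apoe promoter: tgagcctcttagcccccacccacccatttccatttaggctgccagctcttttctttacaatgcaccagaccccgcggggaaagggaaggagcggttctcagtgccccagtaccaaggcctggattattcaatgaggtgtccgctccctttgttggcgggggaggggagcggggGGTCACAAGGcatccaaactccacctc
Apoc4 promoter: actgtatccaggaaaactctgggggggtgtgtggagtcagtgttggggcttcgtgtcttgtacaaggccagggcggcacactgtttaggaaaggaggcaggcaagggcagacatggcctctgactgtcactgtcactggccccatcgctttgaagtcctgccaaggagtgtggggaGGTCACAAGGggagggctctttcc
The shared run, GGTCACAAGG, starts 27 bases before the Apoe start and 24 bases before the Apoc4 start. It was found after the sequences were seen, as the longest run that the Apoe and Apoc4 windows share. Its presence in both was therefore fixed in advance, and how often a pair of windows shares some run of this length was not tested. Searched on both strands, the letters of the shared run were in 21 of 32851 promoter windows of this length (0.0639%). They were not in the Apoc2 window, which lies before 19677941, the start of the minor form Apoc2-203. The leading form, Apoc2-201, starts at 19676864. The letters TATAAA were in 9.96% of all windows and in none of these 3. The letters AGGTCA were in 11.4% of windows, among them those of Apoc4 and Apoc2, and in the Apoc4 window they overlap the shared run. The letters GGGCGG were in 31% of windows, among them that of Apoc4. These matches describe the letters only.

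Levels are in TPM, a length-corrected share of all transcripts, here with the spike-in RNAs removed and the rest rescaled to sum to 1000000. Expected counts are reads assigned to a gene by a model that splits ambiguous reads. The library of pup 1 held 54817565 expected counts on genes and other endogenous features and that of pup 3 held 34792898, beside 3.76% and 3.28% on spike-ins. A count of 0 thus allowed up to 0.0547 and 0.0862 CPM, that is counts per 1000000 counts. This floor and every counting interval cover counting error only, since the reads carry no molecular identifiers. Of all genes, 8.20% were at 1 TPM or more in both libraries, and of protein-coding genes 14.9%. All 4 members were. The hepatocyte markers were present (Alb 14549 and 17480 TPM, Ttr 2623 and 3175 TPM, in pup 1 and pup 3), as were the Kupffer cell markers Clec4f (156 and 195 TPM), C1qb (259 and 225 TPM) and Cd5l (46.5 and 85 TPM). Of 14 macrophage and Kupffer cell markers, 8 were detected in both libraries, 1 in pup 1 only and 5 in pup 3 only, the last with 0 counts in pup 1. The stellate cell marker Dcn was at 215 and 140 TPM, whereas Lrat was at 20.5 TPM in pup 1 and had 2 counts in pup 3.

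Apoe was the most abundant member. It was at 12953 TPM in pup 1 (565288 expected counts) and 13142 TPM in pup 3 (394271 counts), with a mean of 13047 ± 134 (SD, n = 2). It ranked 11 among all genes in each library and made up 1.3% and 1.31% of all transcripts. Relative to albumin, the major plasma protein of liver, there were 0.89 and 0.752 Apoe transcripts per Alb transcript.

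Apoc4 was also close to the same level in both libraries, at 2542 TPM in pup 1 (38741 counts) and 2569 TPM in pup 3 (26854 counts), with a mean of 2555 ± 18.5 (SD, n = 2). Apoc1, by contrast, was at 2501 TPM in pup 1 (34553 counts) and 3880 TPM in pup 3 (37058 counts), with a mean of 3191 ± 975 (SD, n = 2). Apoc2, which encodes the lipase cofactor, was at 1474 TPM in pup 1 (31532 counts) and 2303 TPM in pup 3 (34039 counts), with a mean of 1889 ± 586 (SD, n = 2). Thus Apoc1 and Apoc2 were higher in pup 3, each by a like factor. In pup 1 the order was Apoe, Apoc4, Apoc1, Apoc2, and in pup 3 it was Apoe, Apoc1, Apoc4, Apoc2. By TPM, Apoe stood far above the rest in each library, and Apoc2 was lowest in each, below Apoc1 and Apoc4. By counts, which are not corrected for length, Apoc4 was the lowest in pup 3. Apoc1 and Apoc4 changed places, so that the difference between these neighbours was within the spread between the libraries.

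**Figure D1:**
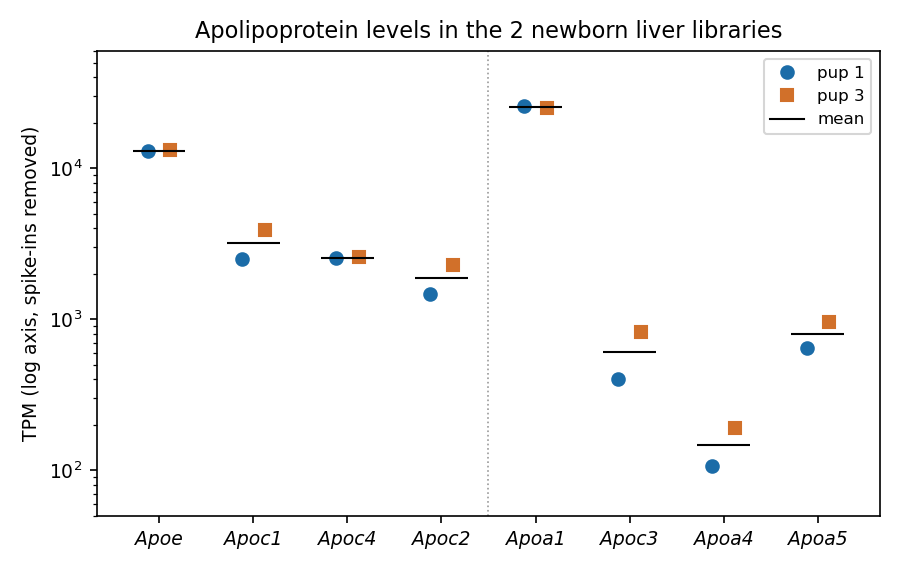
Level in TPM (log axis, spike-ins removed) of the 4 genes of the chromosome 7 cluster, left of the dotted line, and of the Apoa1 cluster, right of it, with a point for each pup and a line at the mean. The points of the pups nearly coincide for Apoe (12953 and 13142 TPM), Apoc4 and Apoa1, and lie apart for the other genes.

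On the log2(TPM + 1) scale, the ratio of pup 3 to pup 1 was 0.02 for Apoe, with a 95% counting interval of 0.015 to 0.027. It was 0.01 for Apoc4, with an interval of -0.008 to 0.037. It was 0.63 for Apoc1 (1.55-fold, interval 0.61 to 0.65) and 0.64 for Apoc2 (1.56-fold, interval 0.62 to 0.67). Counting error alone was therefore small beside the gap between the 2 pairs of genes. The sign of the ratio for Apoe and Apoc4 turned under edgeR TMM factors (-0.11 and -0.12), which move all genes by -0.13, so neither gene has a direction. Apoc1 and Apoc2 stayed above 0 under TMM factors, at 0.50 and 0.51, but were then under 1.5-fold.

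These ratios stand against a wide background. Of 8120 genes whose expected counts averaged 10 or more, 38.4% were more than 1.5-fold higher in pup 3, 40.3% more than 1.5-fold lower and 21.3% within 1.5-fold, and 1.79% were within 0.05 on the log2 scale. The closer comparison is with the 103 genes at a mean of 1000 TPM or more, of which 17.5% were more than 1.5-fold higher, 23.3% more than 1.5-fold lower and 59.2% within 1.5-fold. Within 0.05 on the log2 scale were 10.7% of them. Apoc1 and Apoc2 belong to the first of these classes, and Apoe and Apoc4 to the last. Among the 103 genes the median size of the log2 ratio was 0.45, with quartiles of 0.18 and 0.74. A smaller size than that of Apoe was found in 4 genes and a smaller one than that of Apoc4 in 3, while 67 genes had a smaller one than Apoc1 and 68 a smaller one than Apoc2. The median ratio of the members was 0.33, against -0.01 over the 103 genes. Of the 103 genes, the 31 shorter than 700 nt had a median ratio of 0.19 and the 72 longer ones had -0.04. Apoc1, Apoc4 and Apoc2 belong to the shorter set and Apoe to the longer, and the part of length in these ratios was not tested. The 9 spike-in RNAs at 1000 TPM or more, which were added to both libraries, had a median ratio of -0.36 and ranged from -1.14 to 0.11.

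**Figure D2:**
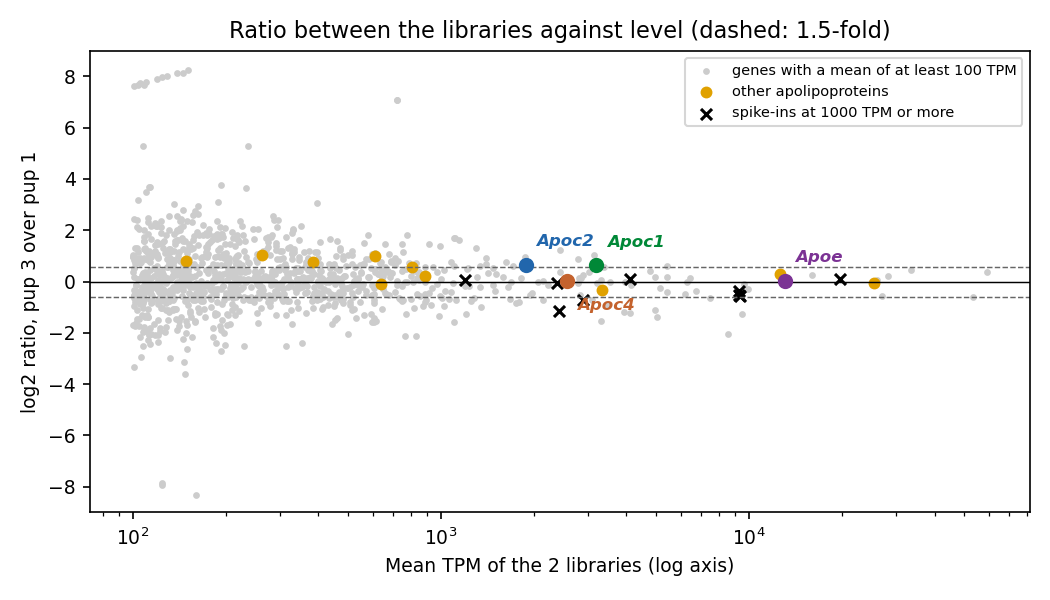
Log2 ratio of pup 3 to pup 1 against the mean TPM (log axis) for 1096 genes that average 100 TPM or more, with the cluster genes, other apolipoproteins and spike-ins marked and dashed lines at 1.5-fold. Apoe and Apoc4 lie on the zero line, and Apoc1 (0.63) and Apoc2 (0.64) lie just above the upper dashed line.

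Ratios between members within a library do not depend on how the libraries are scaled. There were 5.09 Apoe transcripts per Apoc4 transcript in pup 1 and 5.12 in pup 3. There were 1.7 Apoc1 transcripts per Apoc2 transcript in pup 1 and 1.68 in pup 3. So Apoe with Apoc4, and Apoc1 with Apoc2, each had a nearly equal ratio in both libraries, a pairing drawn after the values were seen. The latter ratio rests on counting under Apoc2 the transcripts that join it to Apoc4, described with the isoforms: without them it was 2.08 in pup 1 and 2.45 in pup 3. The former ratio rests on leaving those transcripts out of Apoc4, though they hold its first exon. Together with Apoc4 they were at 2817 TPM in pup 1 and 3291 TPM in pup 3, 1.17-fold, in place of 2542 and 2569 TPM. Across the pairs the ratios differed, with Apoe per Apoc1 at 5.18 in pup 1 and 3.39 in pup 3, and Apoc4 per Apoc2 at 1.72 and 1.12. The pairs are not neighbours on the chromosome, where the order is Apoe, Apoc1, Apoc4, Apoc2.

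Summed, the cluster was at 19470 TPM in pup 1 and 21894 TPM in pup 3, or 1.95% and 2.19% of all transcripts, with a mean of 2.07% ± 0.171 (SD, n = 2). The ratio of the sums was 0.17 on the log2 scale. Apoe made up 66.5% of the cluster's TPM in pup 1 and 60% in pup 3, Apoc1 12.8% and 17.7%, Apoc4 13.1% and 11.7%, and Apoc2 7.57% and 10.5%. By expected counts, which grow with transcript length, Apoe made up 84.4% and 80.1%.

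The other apolipoprotein cluster of the mouse, Apoa1-Apoc3-Apoa4-Apoa5 on chromosome 9, is led by Apoa1, which encodes the chief protein of high-density lipoprotein (HDL). Its sum was 27003 TPM in pup 1 and 26882 TPM in pup 3, 2.69% ± 0.00852 (SD, n = 2) of all transcripts. There the leading gene was close to the same in both libraries, and Apoc3, Apoa4 and Apoa5 were higher in pup 3. Apoa1 was at 25845 and 24917 TPM, a log2 ratio of -0.05, and Apoc3, which encodes the inhibitor of lipolysis, was at 404 and 818 TPM, a ratio of 1.01. The lipolysis activator Apoa5 was at 647 and 958 TPM. The chromosome 7 cluster made up 30.7% of the summed TPM of 20 apolipoproteins in pup 1 and 32.1% in pup 3. Of the 16 apolipoproteins outside it, 12 passed the count limit of 10, and 5 of these were more than 1.5-fold higher in pup 3, none lower and 7 within 1.5-fold. Over all 8120 genes these shares were 38.4%, 40.3% and 21.3%. Saa4, among the 5 and outside the rule for naming, had 0 counts in pup 1. The median log2 ratio of the 12 was 0.56. It was -0.04 over all 8120 genes and -0.01 over the 103 genes at a mean of 1000 TPM or more. Apob, the structural protein of very-low-density lipoprotein, was at 283 and 487 TPM, and Apoa2, which encodes another HDL protein, was at 11328 and 13892 TPM. Apoh was at 3733 and 2936 TPM. Apol6, Saa1 and Saa2 had 0 counts in both libraries.

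In the 100 kb on either side of the cluster lie 12 other annotated genes, and the members made up 99.3% of the TPM of the whole window in pup 1 and 99.9% in pup 3. Tomm40, which encodes a channel of the mitochondrial outer membrane, lies 2124 bp from Apoe and had 3 counts in pup 1 and 2 in pup 3. Clptm1 lies 6545 bp from Apoc2 and had 14 and 0 counts. These nearest flanks were named after their values were seen. The genes next to the cluster on both sides were thus nearly unread in these libraries. Nectin2, which encodes a cell adhesion protein, was at 37.7 and 27.8 TPM and lies 17455 bp from Apoe. Gemin7, which encodes a part of the SMN complex, was at 49.2 TPM in pup 1 and 1.31 TPM in pup 3. The ubiquitin ligase gene Cblc was at 41.8 TPM in pup 1 and had 0 counts in pup 3. Of the 12 neighbours, 2 were at 1 TPM or more in both libraries, beside 8.20% of all genes. Another 9 were below 1 TPM in both libraries, 6 of them with 0 counts in both. Low levels in these flanks are thus shared with most annotated genes.

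The transcript tables split each gene into its annotated forms. Of the 18 transcripts, 13 were at 1 TPM or more in both libraries and 8 held at least 1% of their gene in both. Transcript names are those of GENCODE M21. The deposited values rest on the older GENCODE M4, and the listed length equals the M21 exon sum for 11 of the 18. No form of Apoc1 or Apoc4 is among these. Apoc4-201 is listed at 464 nt, against 538 nt in M21. How far the TPM of Apoc4, and its order against Apoc1, depend on the listed length was not tested. Each sequence here covers a splice junction and is named by the leading form that holds it, read from GRCm38 on the minus strand, with the last 15 bases of the upstream exon in lower case and the first 15 of the next exon in capitals.
Apoe-209: cacccagggaccttgACTGGCCAATCACAA
Apoe-206: tttcggaaggagctgACTGGCCAATCACAA
Apoc4-201: tggtcagctttgtagCATCCATGTCTACAG
Gm44805-202: tggtcagctttgtagGTCCCAGACAGCATG
Gm44805-201: tggtcagctttgtagGCCTGCCACCCCACC
Apoc2-201: tgccactacattcagGTCCCAGACAGCATG
Apoc2-202: aatcagtgctacacaGTCCCAGACAGCATG
The Apoe-206 junction is also in Apoe-202 and Apoe-210, and the Apoc2-201 junction is also in Apoc2-203 and Gm44805-201, so neither marks its form alone. Each of the other 5 is in 1 form of the cluster. The first pair shares its capitals and differs in the first exon, upstream of the Apoe coding sequence. The next 3 share the lower-case end of the first Apoc4 exon, which is joined to the next Apoc4 exon in Apoc4-201 and to exons of Apoc2 in the Gm44805 forms. Gm44805-202, Apoc2-201 and Apoc2-202 share the Apoc2 exon that starts at 19673613 and reach it from different exons. Reads across a junction were not seen here, and the split comes from the authors' model.

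**Figure D3:**
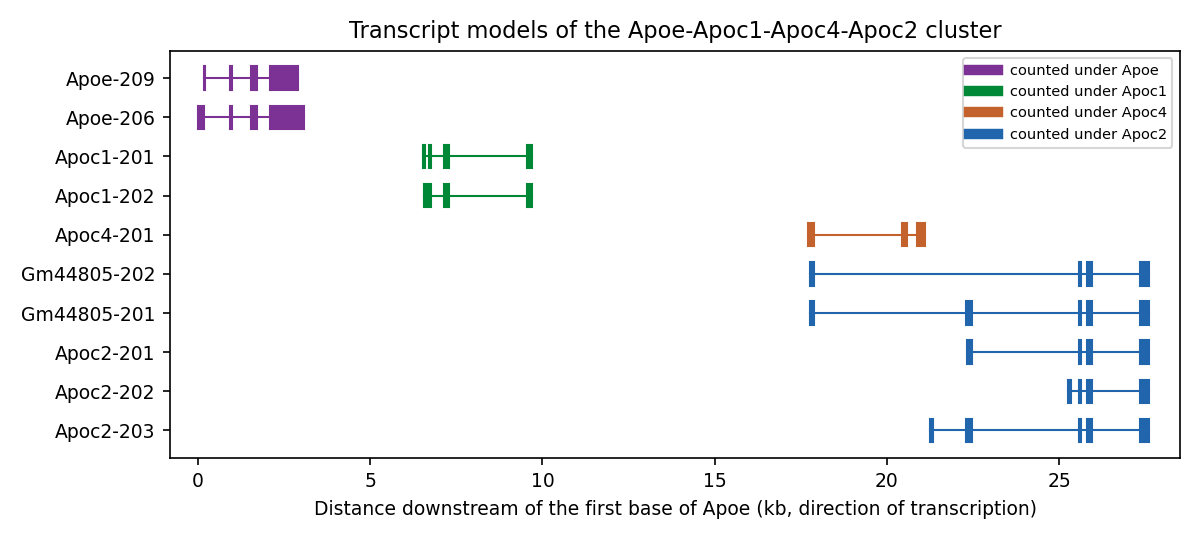
Transcript models of the cluster from GENCODE M21, with exons as boxes, drawn to scale by distance in kb downstream of the first base of Apoe, in the direction of transcription. Gm44805-202 and Gm44805-201 start at the first exon of Apoc4-201 and share their later exons with the Apoc2 forms.

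Apoe was carried mainly by Apoe-209, at 10878 TPM in pup 1 and 10877 TPM in pup 3, or 84% and 82.8% of the gene. Apoe-206 was at 1933 and 2058 TPM, or 14.9% and 15.7%. The M21 models of these forms have 1067 nt in common. Apoe-209 has only 37 nt of its own, all in its first exon. Apoe-206 has 341 nt of its own, 178 in its first exon and 163 at its 3′ end, so that the split rests on the 2 ends of the transcript. The remaining Apoe forms were each under 1% of the gene in both libraries, with Apoe-201 the highest at 85.9 and 89.3 TPM. The 4 forms that hold the complete Apoe start and stop codons of Apoe-209 made up 99.6% and 99.4% of the gene.

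Apoc1 had 2 forms with the same start and stop codons in M21. Apoc1-201 was at 2379 TPM in pup 1 and 3530 TPM in pup 3, a 1.48-fold difference. Apoc1-202 was at 122 and 351 TPM, a 2.87-fold difference, and its share of the gene was 4.88% in pup 1 and 9.04% in pup 3. Both forms were thus higher in pup 3, the minor form by more. Apoc4 had a single annotated form.

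Apoc2 had 5 forms, and its difference between the libraries lay unevenly among them. Apoc2-201, the leading form, was at 970 TPM in pup 1 and 1568 TPM in pup 3, or 65.8% and 68.1% of the gene. Apoc2-202, with its first exon near the Apoc2 start codon, was at 230 TPM in pup 1 and 0 in pup 3, where the deposited interval reaches up to 11.8 TPM. Apoc2-203 was at 0 and 12.7 TPM. The forms that join the first Apoc4 exon to Apoc2 are counted under Apoc2 in the deposited tables and are a gene of their own, Gm44805, in M21. Of these, Gm44805-202 was at 237 TPM in pup 1 and 637 TPM in pup 3, with deposited intervals of 155 to 345 and 575 to 683 TPM, which do not overlap. Gm44805-201 was at 36.7 and 85.2 TPM. Its listed length of 500 nt equals the first 4 of its 5 exons in M21.

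Together the joined forms were at 274 TPM in pup 1 and 722 TPM in pup 3, a mean of 498 ± 317 (SD, n = 2). They made up 18.6% and 31.4% of the Apoc2 gene. Without them Apoc2 was at 1200 and 1581 TPM, a 1.32-fold difference in place of 1.56-fold, so its place past 1.5-fold depends on them. This alternative was added after the values were seen. Among all transcripts that hold the first Apoc4 exon, joined forms were 9.73% in pup 1 and 21.9% in pup 3. In the M21 models both joined forms hold the start codon of Apoc4 as well as the Apoc2 exons. Their annotated start and stop codons, however, are those of Apoc2-201, as in all 5 forms counted under Apoc2. Because the joined forms share most of their length with Apoc4-201 or Apoc2-201, their split from those is uncertain. No source used here says whether reads were counted by strand.

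**Figure D4:**
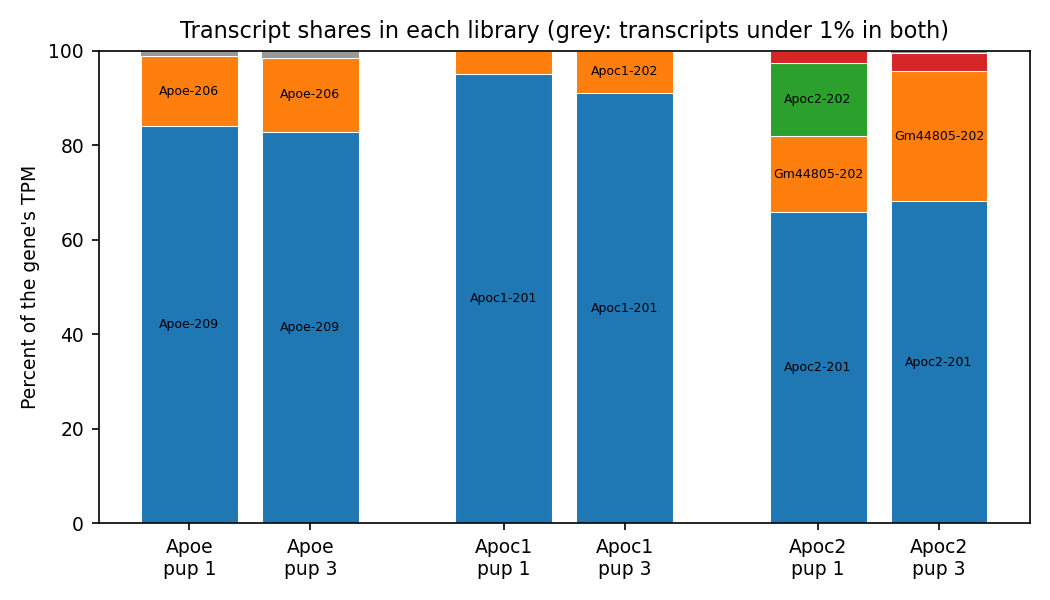
Percent of each gene's TPM held by its transcripts in each library, as stacked bars from 0 to 100% for Apoe, Apoc1 and Apoc2, with Gm44805-201 as the unlabelled red part. Apoe is split alike in both pups (Apoe-209 84% and 82.8%), while Apoc2-202 is seen in pup 1 only and Gm44805-202 holds 16.1% in pup 1 and 27.7% in pup 3.

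Genes for receptors and uptake of the cluster's proteins were far lower than the cluster itself. Of 14 genes for receptors and uptake, 5 were at 1 TPM or more in both libraries, 3 in one library and 6 in neither. Of all protein-coding genes, 14.9% were at 1 TPM or more in both. The 14 genes are few for such a comparison. Their summed level was 520 TPM in pup 1 and 259 TPM in pup 3. Scarb1, the receptor for high-density lipoprotein, was at 106 and 111 TPM. Lrp1, a remnant receptor, was at 50.2 and 66.3 TPM, and the proteoglycan gene Sdc1 was at 184 and 17.4 TPM. The chaperone gene Lrpap1 had 4983 counts in pup 1 and 1 in pup 3. Vldlr, Lrp2, Sorl1, Sort1 and Mylip had 0 counts in both. So while Apoe was at nearly the same level in both libraries, Lrpap1 was read almost only in pup 1.

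The counts of this paragraph stand beside those of all 8120 genes, of which 38.4% were more than 1.5-fold higher in pup 3, 40.3% lower and 21.3% within 1.5-fold. Of 12 genes of lipolysis and its control, 10 passed the count limit, 3 of them more than 1.5-fold higher in pup 3, 4 lower and 3 within 1.5-fold, with a median log2 ratio of -0.25. The hepatic lipase gene Lipc was at 326 and 228 TPM. Apoc2's own partner, lipoprotein lipase (Lpl), was at 274 TPM in pup 1 and 21.6 TPM in pup 3, outside the rule for naming. Of 11 genes of lipoprotein assembly, 9 passed, 3 higher, 2 lower and 4 within 1.5-fold, with a median of 0.47. P4hb, a subunit of the triglyceride transfer protein, was at 523 and 755 TPM, and Cideb, a lipid droplet protein, was at 183 and 253 TPM. All 9 genes of high-density lipoprotein formation passed, 2 higher, 2 lower and 5 within 1.5-fold, with a median of 0.06. Apom was at 816 and 959 TPM.

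Transcription factors with a known part in apolipoprotein gene control summed to 219 TPM in pup 1 and 443 TPM in pup 3, far below the cluster. Of 19 such genes, 4 were at 1 TPM or more in both libraries, 7 in one and 8 in neither. Of all protein-coding genes, 14.9% were at 1 TPM or more in both. Of the 12 that passed the count limit, 4 were more than 1.5-fold higher in pup 3, 6 lower and 2 within 1.5-fold, with a median of -0.54. Over all 8120 genes these shares were 38.4%, 40.3% and 21.3%, so the counts are near the background. Ppara, which encodes the fatty acid receptor, was at 29 and 244 TPM, in pup 1 and pup 3, and the oxysterol receptor gene Nr1h3 was at 44.7 and 143 TPM. Their partner Rxra went the other way, with 43.6 TPM (8754 counts) in pup 1 and 9 counts in pup 3, and Nr1h2, another oxysterol receptor gene, was at 0 and 36.1 TPM. Among those with 0 counts in both libraries were Nr5a2, Pparg, Zfp202, Foxa1 and Foxa2. At this input a count of 0 does not show that a gene was silent.

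**Figure D5:**
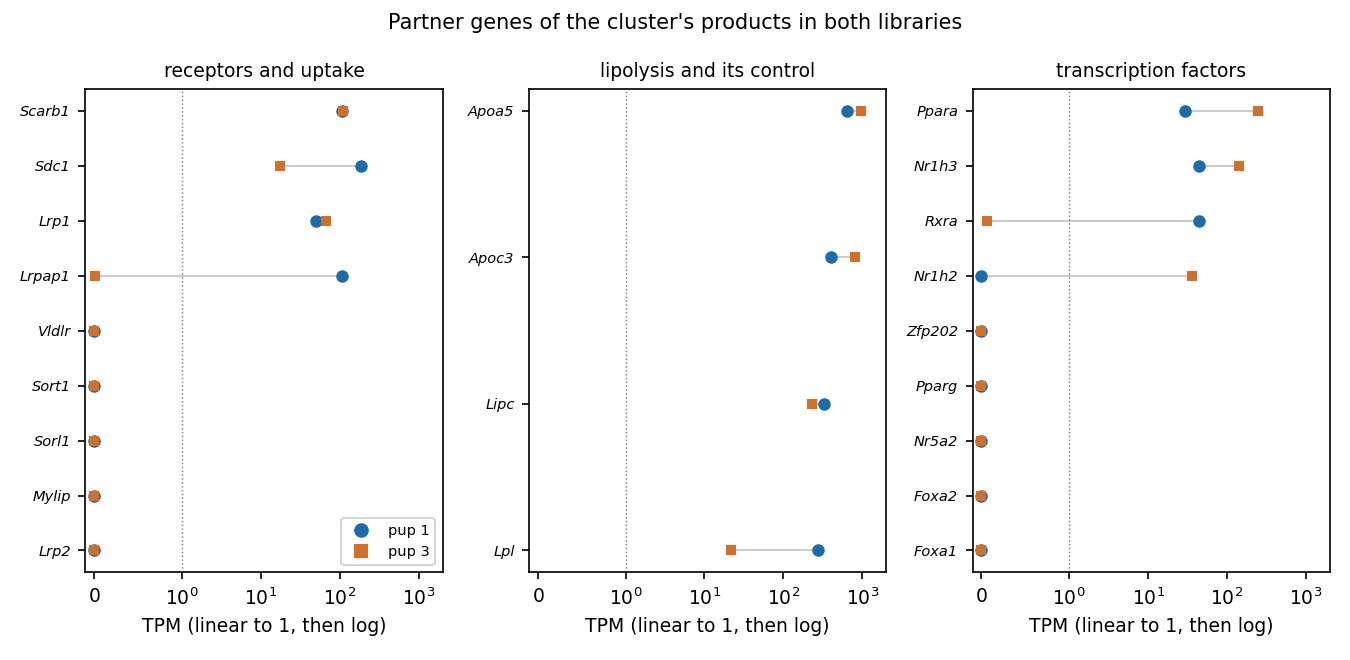
Level in TPM in pup 1 (circles) and pup 3 (squares) of the genes named in the text for receptors and uptake, lipolysis and its control, and transcription factors, on an axis that is linear up to 1 TPM (dotted) and logarithmic above it. Scarb1 (106 and 111 TPM) is level between the pups, whereas Lpl (274 and 21.6 TPM) and Ppara (29 and 244 TPM) are not.

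Because RNA came from whole liver, fewer cells of a type and less RNA per cell cannot be told apart. All 10 hepatocyte markers were at 1 TPM or more in both libraries, summing to 145190 TPM in pup 1 and 118235 TPM in pup 3, with a median log2 ratio of 0.09. The 14 macrophage and Kupffer cell markers summed to 992 and 1786 TPM. This sum was higher in pup 3, as were Apoc1 and Apoc2, and its part in their ratios was not tested. The neutrophil markers summed to 6322 and 9091 TPM and the erythroid ones to 133241 and 163586 TPM. Stellate and mesenchymal markers summed to 455 and 472 TPM, endothelial ones to 385 and 183 TPM, and bile duct ones to 142 and 269 TPM, with Epcam, Krt7 and Cftr at 0 counts.

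The genes most like each member were found by the distance between log2(TPM + 1) values over the 2 libraries, among protein-coding genes. For Apoe they were Afp (12027 and 13594 TPM, distance 0.12), Apoa2 (0.21) and Alb (0.44). Afp and Alb encode the fetal and adult albumins. For Apoc1 they were Serpinc1, which encodes antithrombin (2704 and 4047 TPM, distance 0.13), Fbp1 (0.20) and Ttr (0.30). Apoc4 was nearest to mt-Co2 (2818 and 2737 TPM, distance 0.17), Igfbp1 (0.21) and Gpx1 (0.27). Apoc2 was nearest to the neutrophil gene S100a9 (1272 and 2464 TPM, distance 0.23), Ppia (0.34) and mt-Nd4 (0.36). With 2 libraries this distance is mostly a likeness of level.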

How the data were processed

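Newborn mouse liver RNA was sequenced in 2 libraries, labelled pup 1 and pup 3. The authors deposited a gene and a transcript table per library, made on mm10 with GENCODE M4, per the submitters' processing notes, and no source used here names the aligner or quantifier. The deposited columns used were expected counts (estimated counts, not whole), TPM, the percent of a gene held by each isoform, and a posterior mean TPM with interval bounds, used as a score. The deposited FPKM column served only as an alternative. Spike-ins were removed and TPM rescaled to 1000000. GENCODE M21, on the GRCm38 assembly that mm10 also names, gave names and exons; 42462 of 43346 gene identifiers (98%) matched, and 137 of 138 listed symbols, all but Ahsp. Detection meant 1 TPM, ratios used log2(TPM + 1), and genes averaging 10 or more expected counts formed the background. Counting intervals were exact 95% binomial intervals of the split of a gene's counts between the libraries, shifted to centre on its TPM ratio. No test was run. Scaling alternatives used edgeR 4.0.16 (TMM) and DESeq2 1.42.0 size factors in R 4.3.3; the rest used Python 3.11.15, pandas 2.3.3 and numpy 2.4.6. The ratio formula was tried on simulated Poisson counts, there centred on the genes left unchanged, a step not used for the reported ratios. The simulation held counting error only. Members and lists were chosen with earlier results of these data known. Named genes were the members, the 3 most like each, neighbours at 1 TPM or more within 100 kb, up to 4 genes of highest mean TPM per list and those at 0 counts in both libraries; some are not reported here, exceptions are marked, and markers are named as defining ones.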

Additional observations from a re-analysis of the deposited data

How the results depend on the processing

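The log2 ratio of the summed cluster, 0.17, was 0.04 under TMM factors, 0.05 under DESeq2 size factors, 0.02 under each of these without a gene filter and 0.48 under spike-in totals. These scalings moved all genes by -0.13, -0.12, -0.15 and 0.32. The cluster's share was 1.32% by CPM of expected counts in place of 2.07%, since that measure is not corrected for length. Leaving out each library in turn gave a share of 1.95% to 2.19% and from 4 to 4 detected members. Over 11 settings the Apoe ratio ran from -0.13 to 0.34 and that of Apoc4 from -0.14 to 0.33. The Apoc1 ratio ran from 0.48 to 0.95 over 11 settings and that of Apoc2 from 0.40 to 0.96 over 12, each above 0 in every setting and past 1.5-fold in 7. No paired analysis was possible because there was a single group. With 2 libraries the spread itself is poorly known.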
